A study of Mus musculus with 8 samples.

Results

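Plexins are transmembrane receptors for semaphorins, a large class of secreted, membrane-bound and GPI-anchored guidance proteins. Binding of a semaphorin to a plexin controls small GTPases of the Ras superfamily through the cytoplasmic part of the receptor, and so changes adhesion, the actin cytoskeleton and cell movement. Several class 4 and class 7 semaphorins act between lymphocytes and antigen-presenting cells, and plexins on B cells take part in their positioning and in contacts with helper T cells. The 9 genes described here are 4 plexins (Plxna1, Plxnb2, Plxnc1 and Plxnd1) and 5 semaphorins (Sema4a, Sema4b, Sema4c, Sema4d and Sema7a), taken by symbol from a count table of 43629 mouse genes. The set was chosen by measured values, after Plxnd1 and Plxnb2 had been seen to be higher in one group of these libraries, so the differences of all 9 between the groups are given as description, without p-values. Of the 9 genes, 8 passed the filter on low counts and Sema4c did not.

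RNA was measured in 8 libraries of splenic follicular B cells, 4 in each of 2 groups. Follicular B cells make up most mature B cells of the spleen and recirculate between lymphoid organs. All 8 libraries, controls included, came from mice with the Rosa26GFPZFP36L1 allele, which places a GFP-tagged ZFP36L1 at the Rosa26 locus. The 4 libraries labelled GFP-ZFP36L1 had 1 CD23cre allele in addition (CD23cre/+), with Cre driven from a gene of mature B cells. Cre and the expressed protein go together in this design, so their effects cannot be told apart, and the animals' ages are not used here. Replicate numbers only name libraries and pair none of them. The labels do not say whether libraries of a group came from separate mice, so spread and p-values refer to these libraries. ZFP36L1 binds AU-rich elements in mRNA and promotes decay.

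The libraries held 38947758 to 51024233 counts. Of 10 follicular B cell markers all were tested, and their summed level was 18512 to 19704 CPM (counts divided by the scaled library total, times 1000000) in the controls and 16058.5 to 18357 CPM in the libraries labelled GFP-ZFP36L1. The sort was positive for CD93 per the labels, and Cd93 itself had 8.40 to 13.2 CPM in controls against 8.87 to 14.6 CPM in the libraries labelled GFP-ZFP36L1. Zfp36l1 was lower in the libraries labelled GFP-ZFP36L1, at 439 ± 28.6 against 547 ± 35.1 CPM (SD, n = 4 each), and the noncoding Rosa26 gene Gt(ROSA)26Sor was at 3.90 ± 0.603 against 16.9 ± 2.58 CPM. The count table does not separate the transgene from endogenous Zfp36l1, and Zfp36l1 goes against the label, so directions below are between libraries as labelled.

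The sequence bound by ZFP36 family proteins is UAUUUAU, and it was looked for in the longest annotated 3' UTR of each gene, because ZFP36L1 is the protein placed at Rosa26 here. Of the 9 genes 3 held it, with 1 copy each, where 29.6% of 10978 tested genes with a 3' UTR did. Neither Plxnd1, with a 3' UTR of 929 bases, nor Plxnb2, with 732 bases, held a copy. The 3 sites are shown 5' to 3' as RNA, with the heptamer in capitals. They were read from GENCODE M21 transcripts, on GRCm38.
Plxna1, chr6:89318633-89318661, minus strand: cauguucccguUAUUUAUuccccgccucc
Sema4c, chr1:36548702-36548730, minus strand: guguccccacaUAUUUAUuuguuguaaau
Sema7a, chr9:57962845-57962865, plus strand: aauaaacaagcUAUUUAUuua
The site of Plxna1 starts at base 726 of a 3' UTR of 3062 bases and is flanked by U on both sides, which makes the longer form UUAUUUAUU. The site of Sema7a starts at base 1255 of 1264, so it sits at the very end of the annotated transcript, and that of Sema4c starts at base 820 of 900. Over all tested genes with a 3' UTR the median log2 fold change was 0.00 with a heptamer and -0.01 without. A match is a description of the letters and not a measured binding site.

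RefSeq promoter windows (GRCm38.p6, 250 bases before to 50 after a start site) were at hand for 8 of the 9 genes, some with several starts. The 5'-most windows of Plxnd1 and Plxnb2 are printed because these are the genes that brought the family into view, and that of Plxnc1 because it is the plexin with the highest level. Searches covered both strands for GGGCGG, the GC box, for GGCGTGG, chosen after the Plxnd1 window had been read, and for the core of the interferon-stimulated response element, GAAA, any 2 bases and GAAA again. Capitals mark every match, and matches on the other strand appear as their complement. The first 2 motifs can overlap by a few bases.
Plxnd1, chr6:115994956-115995255, minus strand: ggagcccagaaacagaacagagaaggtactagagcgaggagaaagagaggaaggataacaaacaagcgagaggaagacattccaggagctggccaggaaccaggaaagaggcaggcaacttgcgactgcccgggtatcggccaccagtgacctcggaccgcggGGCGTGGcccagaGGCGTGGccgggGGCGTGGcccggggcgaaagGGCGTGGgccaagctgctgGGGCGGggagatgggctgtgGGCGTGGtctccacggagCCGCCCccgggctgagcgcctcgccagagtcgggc
Plxnb2, chr15:89180739-89181038, minus strand: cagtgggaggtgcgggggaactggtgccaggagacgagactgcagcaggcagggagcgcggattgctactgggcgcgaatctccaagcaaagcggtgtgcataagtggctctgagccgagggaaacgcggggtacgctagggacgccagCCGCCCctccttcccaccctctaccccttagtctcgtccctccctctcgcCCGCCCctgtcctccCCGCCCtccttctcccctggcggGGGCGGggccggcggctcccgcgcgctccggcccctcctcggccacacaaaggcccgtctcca
Plxnc1, chr10:94944796-94945095, minus strand: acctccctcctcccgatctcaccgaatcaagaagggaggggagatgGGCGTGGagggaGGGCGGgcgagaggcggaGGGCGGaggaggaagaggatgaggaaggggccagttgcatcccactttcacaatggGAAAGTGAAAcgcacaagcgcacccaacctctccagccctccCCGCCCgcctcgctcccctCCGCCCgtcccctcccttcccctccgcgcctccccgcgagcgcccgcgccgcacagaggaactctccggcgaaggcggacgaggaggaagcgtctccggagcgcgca
The Plxnd1 window held GGCGTGG 5 times, all on the sense strand. The printed Plxnb2 window held it 0 times and that of Plxnc1 1 time, also on the sense strand. Because the motif was picked from the Plxnd1 window, its copies there are description only. Of 32851 promoter windows of the same length, 8.55% held GGCGTGG at least once, 35.7% held GGGCGG and 3.44% held the interferon-stimulated core. GGGCGG was found 2 times in the Plxnd1 window and 4 times each in those of Plxnb2 and Plxnc1. Among the members' windows the interferon-stimulated core was found once, in Plxnc1.

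In the control libraries the 9 genes spanned a wide range. Levels between genes are compared as CPM per kb of merged exons, and neighbours in the order are said to differ where their ranges over 4 libraries did not overlap. Sema4d, which encodes CD100, a transmembrane ligand shed from lymphocytes, was the most abundant at 39.9 ± 2.79 CPM per kb (SD, n = 4). Sema4b, another transmembrane semaphorin, followed at 23.9 ± 1.05 CPM per kb. Plxnc1, the plexin that binds the GPI-anchored semaphorin 7A, came next at 14.2 ± 0.648 CPM per kb. Its ligand gene Sema7a had 4.96 ± 0.751 CPM per kb in the same cells.

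Plxnb2, a receptor for class 4 semaphorins, had 2.07 ± 0.138 CPM per kb and shared its range with Plxna3, at 1.79 ± 0.337 CPM per kb. Plxnd1, a receptor for Sema3e and Sema4a, had 0.614 ± 0.0456 CPM per kb, and Sema4a, a class 4 ligand, 0.233 ± 0.0333 CPM per kb. Plxna1, a receptor for class 3 and class 6 semaphorins, had 0.167 ± 0.0203 CPM per kb in the controls, a range that overlapped that of Sema3g and no other neighbour. Sema4d was thus 65.0 times as high as Plxnd1 per kb of merged exons, and 105 times per kb of the longest transcript. Plxnc1 was 85.0 times as high as Plxna1 on the first of these scales and 97.0 times on the second. No range of a tested member overlapped that of another tested member.

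**Figure D1:**
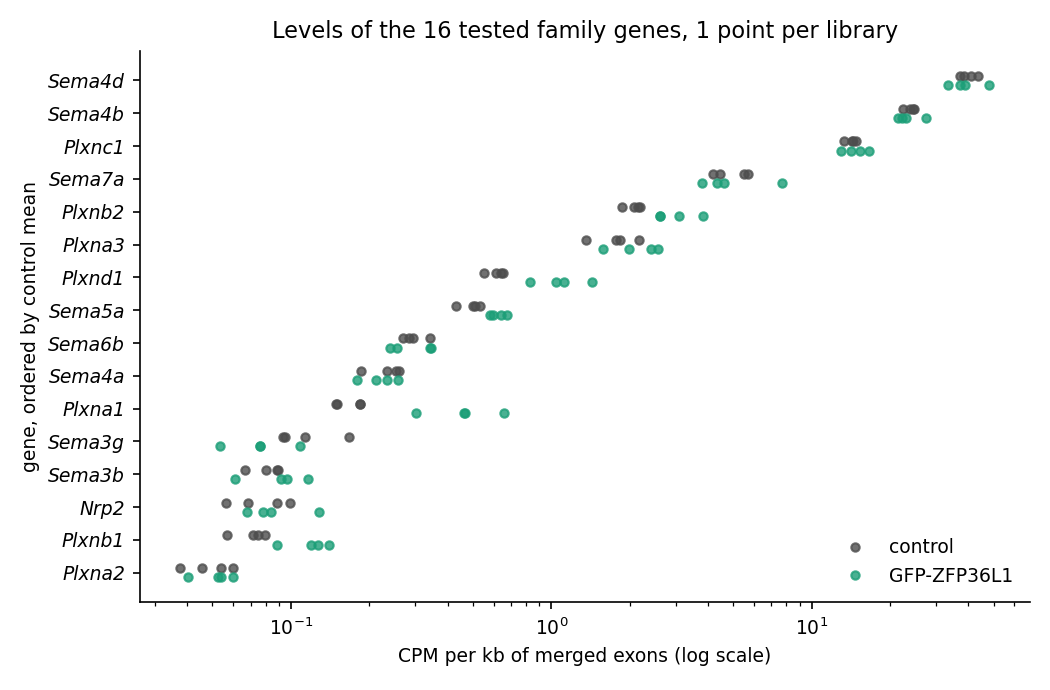
Level of the 16 tested plexin, neuropilin and semaphorin genes as CPM per kb of merged exons on a log scale, 1 point per library, controls in grey and GFP-ZFP36L1 libraries in green, ordered by the control mean. Sema4d, Sema4b and Plxnc1 lie above 10 CPM per kb, and the green points of Plxna1, at 0.472 CPM per kb on average, lie well to the right of the grey ones.

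Sema4c, a transmembrane ligand of Plxnb2, was at the floor of the data. It had 0, 0, 1 and 0 counts in control replicates 1 to 4 and 0, 0, 2 and 1 counts in GFP-ZFP36L1 replicates 1 to 4. At these depths 3 counts correspond to at most 0.077 CPM, so no fold change is given. The noncoding gene D430040D24Rik, which overlaps Sema4c on the other strand, was at 0 counts in every library.

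Between the groups, 3 of the 4 plexins were higher in the libraries labelled GFP-ZFP36L1 and none of the semaphorins passed. The test was edgeR's quasi-likelihood test over 13035 genes, in which an adjusted p under 0.05 was called. It called 3.12% of all tested genes, 1.83% as higher and 1.30% as lower. Nothing is read from which members passed, their count or their medians, because the choice of members used this comparison. The median log2 fold change was 0.70 over the 4 plexins, which include Plxnd1 and Plxnb2, the genes that led to the choice. It was -0.02 over the 4 tested semaphorins and -0.01 over all tested genes. In bulk RNA, fewer cells of a type and less RNA per cell cannot be told apart.

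Plxna1 had the largest difference of the members. It was at 1.67, 1.35, 1.36 and 1.67 CPM in control replicates 1 to 4 and at 2.74, 4.21, 4.20 and 5.97 CPM in GFP-ZFP36L1 replicates 1 to 4. Every GFP-ZFP36L1 library lay above every control, with replicate 4 highest and replicate 1 lowest. The fold was 2.83, a log2 fold change of 1.50 ± 0.21 (SE), and it rested on 57 to 70 counts in the controls and 119 to 245 in the other group. This is also the plexin whose 3' UTR holds the UUAUUUAUU printed above. Its antisense neighbour Gm26811 overlaps 970 bp of its exons and had 0 counts in all 8 libraries.

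Plxnd1 was at 4.68, 4.77, 4.02 and 4.47 CPM in control replicates 1 to 4. The GFP-ZFP36L1 replicates 1 to 4 had 6.05, 8.19, 7.61 and 10.4 CPM, again without overlap and with replicate 4 highest and replicate 1 lowest. The fold was 1.80, a log2 fold change of 0.85 ± 0.15 (SE). Plxnd1 acts in vascular patterning and in the movement of thymocytes, and its gene lies at chr6:115954811-115995005 on the minus strand (GRCm38). The Plxna1 gene is on the same chromosome and strand, at chr6:89316314-89362620.

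Plxnb2 was at 14.5, 16.1, 16.9 and 16.6 CPM in control replicates 1 to 4. In GFP-ZFP36L1 replicates 1 to 4 it was at 20.2, 20.1, 23.9 and 29.5 CPM, so replicates 1 and 2 were alike and replicate 4 stood highest. The fold was 1.46, a log2 fold change of 0.55 ± 0.12 (SE), and the groups did not overlap. Plxnb2 can bind PDZ-domain exchange factors through its C terminus, and its gene lies at chr15:89155549-89180788 on the minus strand.

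**Figure D2:**
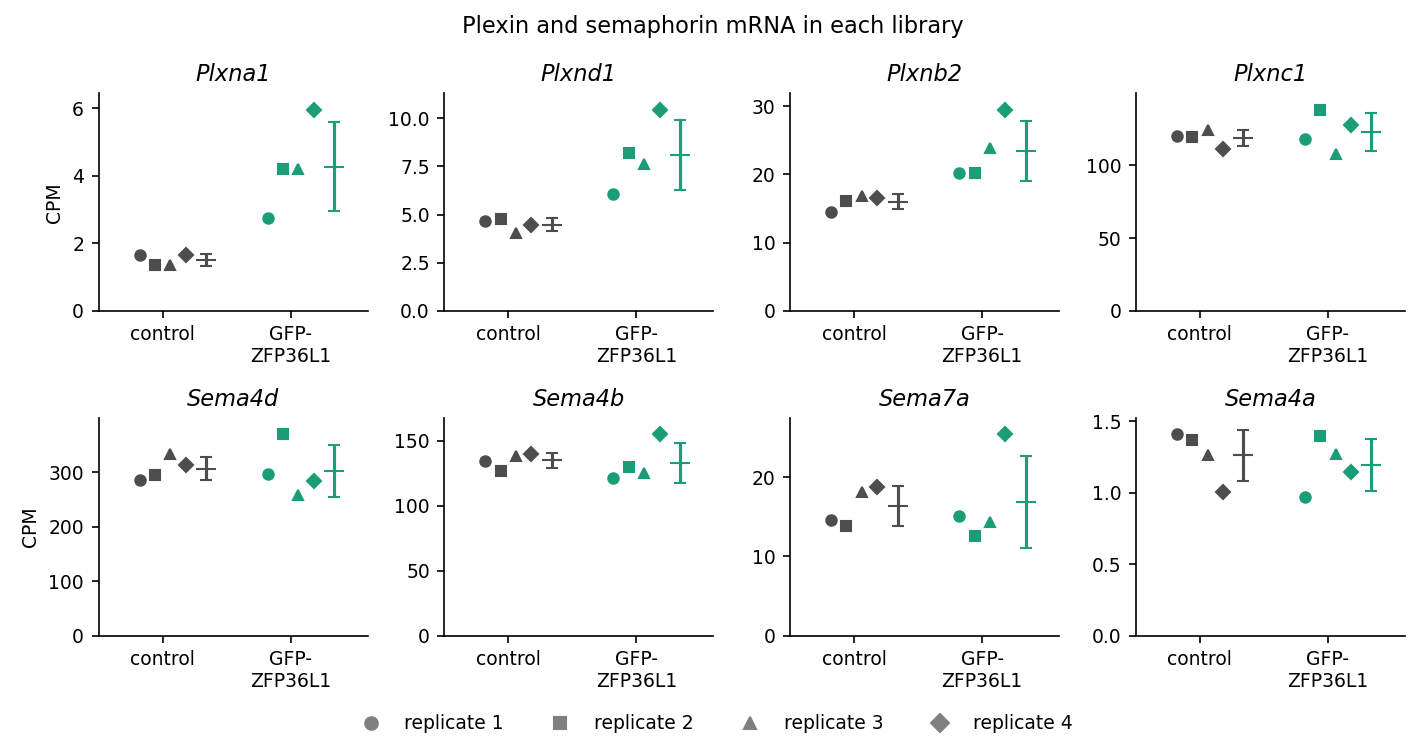
CPM of the 8 tested members in each library (points, shape by replicate number) with the mean and SD of 4 libraries beside them (bar and whiskers), each axis starting at 0. The groups are apart for Plxna1, Plxnd1 and Plxnb2 and overlap for Plxnc1, Sema4d, Sema4b, Sema7a and Sema4a.

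The coefficient of variation over 4 libraries was higher in the libraries labelled GFP-ZFP36L1 than in the controls for all 8 tested members. It was 12.2% in the controls and 30.9% in the other group for Plxna1, 7.43% and 22.5% for Plxnd1, and 6.64% and 18.8% for Plxnb2. Plxnc1, with overlapping groups, went from 4.57% to 10.5% and Sema7a from 15.2% to 34.5%. Without GFP-ZFP36L1 replicate 4 the log2 fold changes were 1.31, 0.71 and 0.42 for Plxna1, Plxnd1 and Plxnb2. The threshold over all genes was missed by Plxnd1 without control replicate 3, and by Plxnb2 without any 1 control or without GFP-ZFP36L1 replicate 3. These refits use the libraries that chose the genes, so they describe how far a value rests on 1 library and lend it no support.

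**Figure D3:**
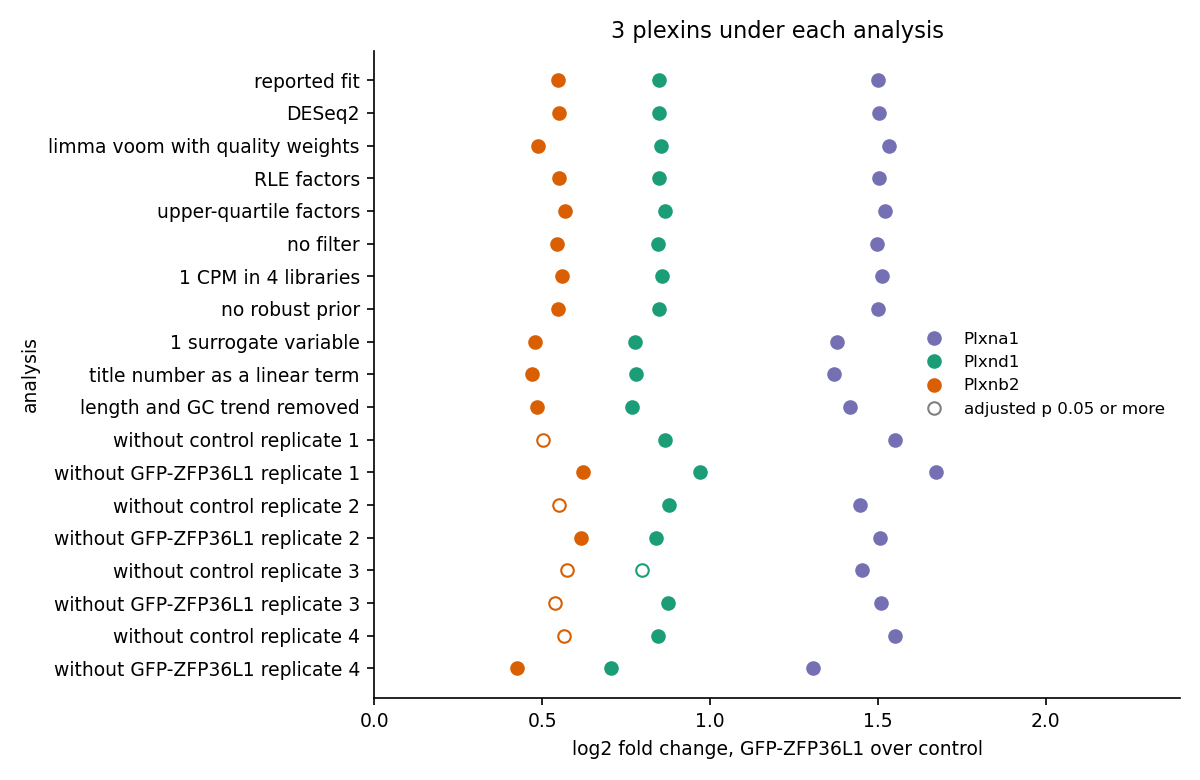
Log2 fold change of Plxna1, Plxnd1 and Plxnb2 under the reported fit and each alternative, with filled points where the adjusted p was under 0.05 and open points where it was not. The values of Plxna1 lie between 1.31 and 1.67, and open points occur only for Plxnb2 and, without control replicate 3, for Plxnd1.

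Plxnc1 showed no difference that passed. It was at 120, 119, 124 and 111 CPM in control replicates 1 to 4 and at 118, 138, 108 and 128 CPM in GFP-ZFP36L1 replicates 1 to 4, and the groups overlapped on both sides. Its log2 fold change was 0.05 ± 0.07 (SE), and its sign turned without GFP-ZFP36L1 replicate 2. Of the 4 member plexins it had the highest level and the smallest difference. A relation between level and difference was not tested.

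The groups overlapped for each tested semaphorin among the members. Of all tested genes 6.23% had no overlap as higher and 4.98% as lower. Sema4d was at 285, 294, 333 and 313 CPM in control replicates 1 to 4 and at 297, 369, 257 and 284 CPM in GFP-ZFP36L1 replicates 1 to 4. Its log2 fold change was -0.02 ± 0.10 (SE), with GFP-ZFP36L1 replicates 2 and 3 the highest and the lowest of all 8 libraries. Sema4b was at 135, 127, 138 and 140.0 CPM in the controls and 121, 129, 125 and 155 CPM in the libraries labelled GFP-ZFP36L1, in the order of their replicate numbers. Its log2 fold change was -0.02 ± 0.07 (SE). GFP-ZFP36L1 replicate 4 was the highest of the 8 libraries and replicate 1 the lowest.

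Sema7a was at 14.6, 13.8, 18.2 and 18.8 CPM in control replicates 1 to 4 and at 15.1, 12.5, 14.3 and 25.4 CPM in GFP-ZFP36L1 replicates 1 to 4. GFP-ZFP36L1 replicate 4 was the highest library and replicate 2 the lowest, and the log2 fold change was 0.04 ± 0.21 (SE). Without replicate 4 it was -0.22. Sema4a was at 1.41, 1.37, 1.26 and 1.01 CPM in the controls and at 0.967, 1.40, 1.27 and 1.14 CPM in the other group, with a log2 fold change of -0.08 ± 0.18 (SE). It is the least abundant of the tested members by CPM, with 41 to 68 counts in a library.

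The authors' deposited table gives the comparison that chose the members, so it lends their differences no support. In it Plxna1, Plxnd1 and Plxnb2 had the largest values of the members. Its log2 fold changes were 0.79 for Plxna1, 0.59 for Plxnd1 and 0.43 for Plxnb2, each smaller than in the present fit. DESeq2 fitted here to the raw counts gave 1.50, 0.85 and 0.55 for the same genes. Whether the authors' values were shrunken is not stated. The mean levels in the authors' deposited table were 1.11 times those of their normalized table for the median gene, so the scaling was not the same, and the reason is not known. For Plxnc1, Sema4a, Sema4b, Sema4d and Sema7a the authors' deposited table has values between -0.04 and 0.05.

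The family holds 22 other plexin, neuropilin and semaphorin genes, of which 8 were tested and none was called by edgeR, with 2 at an unadjusted p under 0.05. Their log2 fold changes had a median of 0.19, with 6 positive and 2 negative, against -0.01 over all tested genes. Groups did not overlap in 2 of the 8, both higher, where 6.23% of all tested genes had no overlap in that direction and 4.98% in the other. Those 2 genes were Plxnb1, a Sema4d receptor, and Sema5a, a semaphorin with thrombospondin repeats.

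Plxnb1 was at 0.716, 0.684, 0.547 and 0.761 CPM in control replicates 1 to 4 and at 0.852, 1.15, 1.22 and 1.34 CPM in GFP-ZFP36L1 replicates 1 to 4. Its log2 fold change was 0.75 ± 0.20 (SE), and the edgeR adjusted p was 0.0733. Sema5a was at 9.20 ± 0.793 CPM in controls against 11.7 ± 0.798 CPM in the libraries labelled GFP-ZFP36L1. The difference was 0.34 ± 0.09 on the log2 scale (SE; edgeR adjusted p = 0.0589). Both were called as higher by DESeq2 and by limma voom. DESeq2 called 6.89% of the genes it gave an adjusted p for, 3.90% as higher and 2.99% as lower. Limma voom called 8.08%, 4.31% as higher and 3.77% as lower.

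The remaining tested family genes did not pass in edgeR. Plxna3 had a log2 fold change of 0.26 ± 0.16, Plxna2 of 0.07 ± 0.21 and the neuropilin gene Nrp2, a co-receptor of class 3 semaphorins, of 0.20 ± 0.25 (SE). Sema3b, Sema3g and Sema6b had 0.17 ± 0.25, -0.55 ± 0.29 and 0.00 ± 0.18 (SE). The 15 family genes that were not tested reached at most 0.415 CPM in any library, and 3 of them had no count in all 8. Sema3e, a ligand of Plxnd1, and Nrp1 were among these 15.

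Other binding partners of the members were taken as a list of 16 genes, of which 9 were tested and 1 was called as higher, where 1.83% of all tested genes were. That gene was Tyrobp, which encodes DAP12, a signalling adaptor that forms a complex with Plxna1 and TREM2 in dendritic cells. Tyrobp was at 23.7, 21.6, 21.3 and 19.9 CPM in control replicates 1 to 4 and at 30.3, 34.6, 33.8 and 31.4 CPM in GFP-ZFP36L1 replicates 1 to 4. It rose by a log2 fold change of 0.59 ± 0.07 (SE), at an edgeR adjusted p of 0.00225, and passed with any 1 library left out. The partner list and the signalling list below were drawn up with earlier results of these data known, so their p-values and refits are description. Trem2 had 1 count in 1 control library and none in the other 7.

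Because Tyrobp is also a gene of myeloid and natural killer cells, markers of those cells were set beside it. The 8 macrophage and monocyte markers summed to 4.64 to 5.83 CPM in controls against 3.09 to 3.91 CPM in the libraries labelled GFP-ZFP36L1. Most of that difference was in Adgre1, at 3.21 CPM in controls and 1.73 CPM in the other group, while Csf1r was at 0.333 and 0.365 CPM, and none of the 4 tested markers was called. The part of myeloid cells in the Tyrobp result was not tested. The 5 natural killer markers summed to at most 0.463 CPM in any library, with Ncr1, Nkg7 and Gzma at 0 counts in all 8. The 6 neutrophil markers summed to at most 0.0974 CPM, and the 8 T cell markers to at most 3.36 CPM, of which Lat alone reached 2.92 CPM. The 7 dendritic cell markers had 3.68 to 5.87 CPM in controls against 5.01 to 6.06 CPM in the libraries labelled GFP-ZFP36L1. The 5 endothelial markers summed to 0.549 to 1.02 CPM in controls against 0.852 to 1.24 CPM in the libraries labelled GFP-ZFP36L1. The endothelial ranges overlapped, and the 1 tested marker was not called. The part of endothelial cells in the Plxnd1 result was not tested.

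Of the other partners, Cd72, the B cell receptor for Sema4d, was at 457 ± 35.8 CPM in controls against 423 ± 10.03 CPM in the libraries labelled GFP-ZFP36L1. Its log2 fold change was -0.11 ± 0.06 (SE) and did not pass. Ptprc, encoding CD45, had -0.21 ± 0.07 (SE; edgeR adjusted p = 0.155). Adam10, a membrane protease, and Itgb1, the beta chain of the Sema7a integrin receptor, had 0.12 ± 0.05 and 0.11 ± 0.06 (SE), at edgeR adjusted p of 0.276 and 0.402. Itga1, the alpha chain of that receptor, did not pass the filter.

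Downstream of plexins, 41 of 49 listed signalling genes were tested, 2 rose and 39 did not pass, where 1.83% of all tested genes were called as higher and 1.30% as lower. The median log2 fold change was -0.02, with 20 positive and 21 negative. Pak1, a kinase activated by Rac and Cdc42, was at 1.12, 1.41, 1.07 and 1.72 CPM in control replicates 1 to 4 and at 2.003, 2.46, 3.02 and 3.46 CPM in GFP-ZFP36L1 replicates 1 to 4. Its fold was 2.05, or 1.04 ± 0.21 on the log2 scale (SE; edgeR adjusted p = 0.0261). Arhgef12, the exchange factor LARG, which binds the C terminus of B-class plexins, was at 18.8, 25.2, 22.1 and 25.5 CPM in the controls. In the GFP-ZFP36L1 replicates 1 to 4 it was at 29.5, 30.7, 28.9 and 36.4 CPM, above every control, and differed by 0.45 ± 0.10 on the log2 scale (SE; edgeR adjusted p = 0.0402). The call of Pak1 was lost without control replicate 1, 2 or 3 or GFP-ZFP36L1 replicate 2 or 3, where its edgeR adjusted p reached 0.0948. The call of Arhgef12 held only without GFP-ZFP36L1 replicate 1 and was lost without any other library, where the edgeR adjusted p reached 0.13.

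Arhgef11, a related exchange factor, went from 70.7 ± 4.21 CPM in controls to 76.5 ± 2.64 CPM (SD, n = 4 each) and did not pass. Ptk2b, encoding the focal adhesion kinase PYK2, and Limk1, which phosphorylates cofilin, had log2 fold changes of -0.20 ± 0.06 and 0.25 ± 0.09 (SE). Neither passed in edgeR, with adjusted p of 0.0913 and 0.146. Ptk2b was called as lower by DESeq2 and limma voom, and Limk1 by neither. None of the 4 tested R-Ras and Rap GTPase genes was called. Gipc1, an adaptor that binds the C terminus of Plxnd1, had a log2 fold change of -0.07 ± 0.08 (SE).

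**Figure D4:**
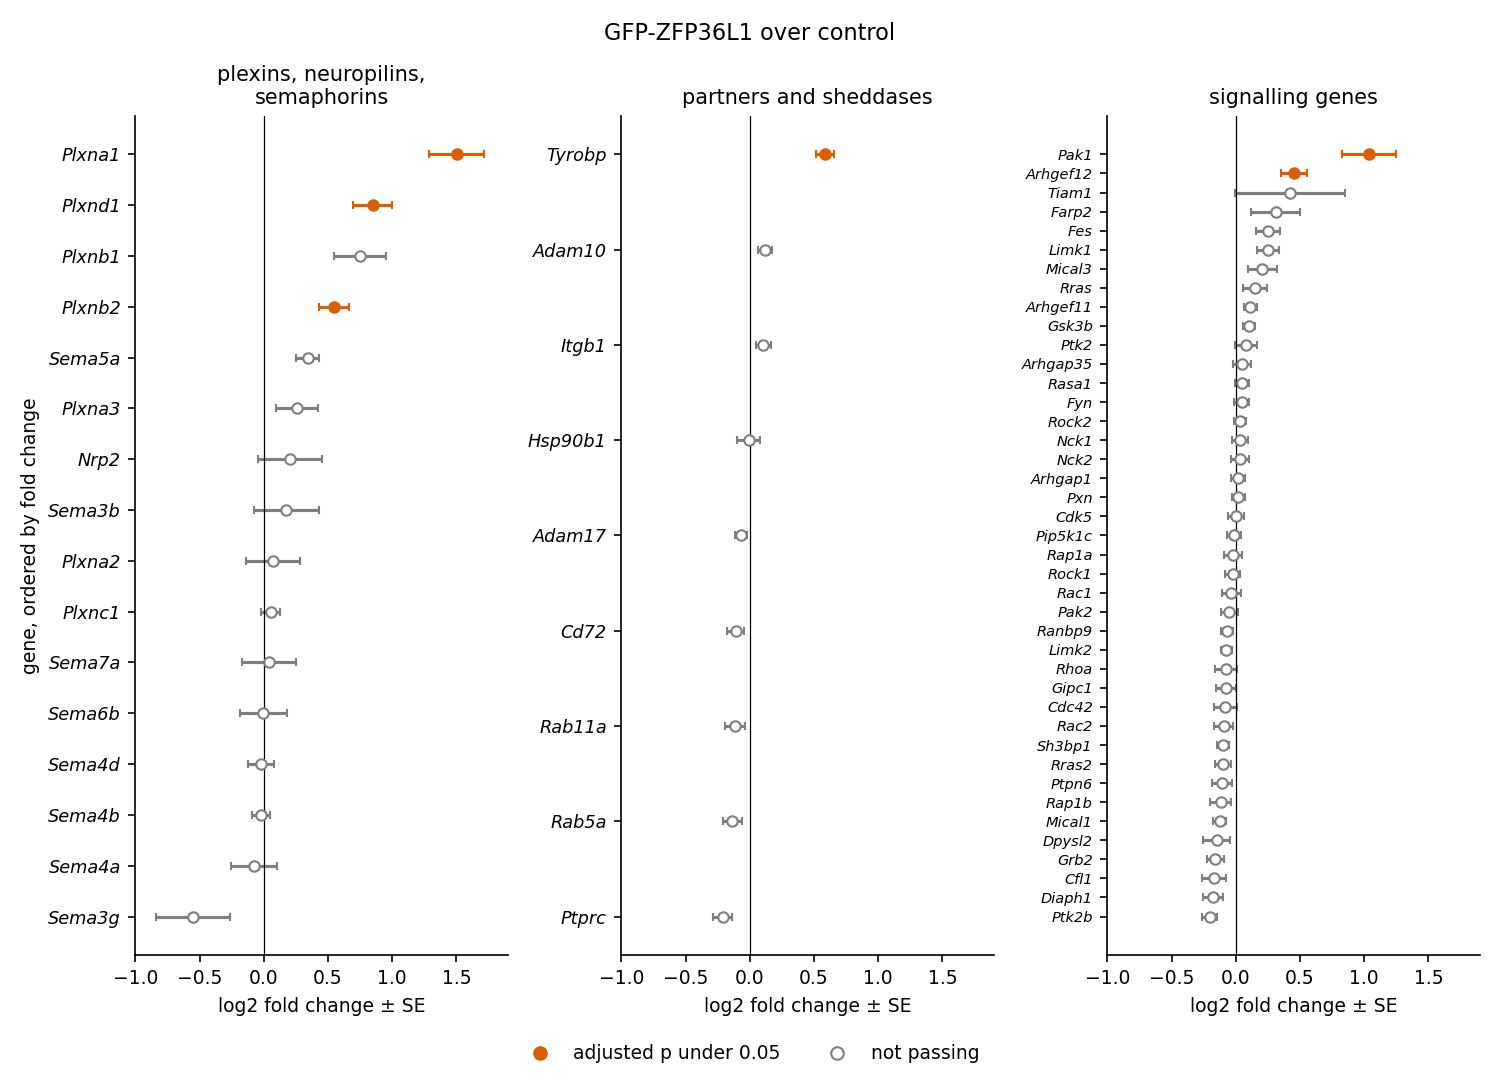
Log2 fold change with SE (GFP-ZFP36L1 over control) of each tested gene of the family, of its partners and of the signalling list, with filled orange points where the adjusted p was under 0.05. Orange points are Plxna1, Plxnd1 and Plxnb2 in the family, Tyrobp among the partners, and Pak1 and Arhgef12 among the signalling genes, all to the right of 0.

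Genes with the most similar course over the 8 libraries were sought among 8833 genes of at least 5 CPM, by the root mean square difference of centred log2 CPM. Nearest to Plxnd1 were Mcoln3, Abi2, Capn2, Fam167a and Ifih1, at 0.136, 0.147, 0.147, 0.148 and 0.163 log2 units, where the median gene was at 0.474. Abi2 regulates actin assembly, Capn2 is a calcium-dependent protease and Ifih1 a sensor of viral RNA. Nearest to Plxnb2 were Vwa5a, Rcn1, Pogk, Kif3a and Zfp629, at 0.0512 to 0.0788 log2 units against a median of 0.334. Plxnb2 itself was number 32 in the order for Plxnd1, at 0.217 log2 units. Since the members were chosen for a difference between the groups, nearness is mostly a shared difference between them. Plxna1 was below 5 CPM and was not in this search.

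Of the markers of other B cell states, 1 of 18 tested was called, where 3.12% of all tested genes were. Among the 10 follicular markers, Ighd was called as lower and 9 did not pass, where 1.30% of all tested genes were called as lower. Of 7 marginal zone markers, Myof was called as higher and 6 did not pass, with summed levels of 475 to 555 CPM in controls against 535 to 646 CPM in the libraries labelled GFP-ZFP36L1. The other 6 had log2 fold changes of 0.91 for S1pr3, 0.30 for Dtx1, 0.19 for Cd9, -0.01 for Plac8, -0.06 for Cd1d1 and -0.10 for Dph5. S1pr3, a receptor for sphingosine 1-phosphate, was the nearest of these to the threshold. It was at 9.52, 6.45, 6.25 and 6.14 CPM in control replicates 1 to 4. In GFP-ZFP36L1 replicates 1 to 4 it was at 12.3, 12.6, 9.31 and 19.1 CPM, so the groups overlapped. Replicate 4 was highest, as for Plxna1, Plxnd1 and Plxnb2 but not for Plxnc1. No germinal centre marker of 6 tested and no plasma cell marker of 5 tested was called. The plasma cell markers summed to 307 to 326 CPM in controls against 322 to 352 CPM in the libraries labelled GFP-ZFP36L1, with Tnfrsf17 at 0 in all 8. The part of marginal zone cells in the plexin result was not tested.

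The 4 plexins have long transcripts, from 6497 to 9034 bases in their longest form, and fold changes varied a little with length. The median log2 fold change was 0.04 over 1584 tested genes of 6000 bases or more and -0.05 over 3650 genes below 2000 bases. With a smooth trend in length and GC removed from each library, Plxna1, Plxnd1 and Plxnb2 were at 1.42, 0.77 and 0.48. With the number in the sample titles as a linear term they were at 1.37, 0.78 and 0.47.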

How the data were processed

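Spleen follicular B cell RNA was sequenced as paired reads of 100 bp from stranded libraries, per the labels. The submitters' processing notes name build GRCm38 and, without roles, HTSeq, Trim Galore, DESeq2 1.10.1 and TopHat2 2.0.12. Neither the strand setting nor the annotation release of counting is stated in those notes. From this the authors deposited raw counts per gene, which were tested here. The deposited normalized signal, raw counts divided by 1 constant per library, was used only as a check. The authors' deposited comparison table gives log2 fold changes, a signed fold score and p-values; only its log2 fold changes are printed.

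Testing used edgeR 4.0.16 under R 4.3.3, with filterByExpr, TMM factors, and the quasi-likelihood test with robust dispersion and group as the sole term. P-values were Benjamini-Hochberg adjusted over 13035 genes. SE came from the F statistic. CPM used TMM-scaled totals. The scripts were tested on simulated data. Library totals set counting precision.

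Members and lists were chosen with earlier results of these data known. Named were the 9 members, every tested family gene, the called partners and signalling genes or the 4 with smallest p, and the 5 nearest patterns. Markers, Cd72, Trem2, Itga1, Arhgef11 and Gipc1 were named outside that rule, after their values were seen. Alternatives were DESeq2 1.42.0, limma 3.58.1 voom, RLE and upper-quartile factors, other filters, no robust prior, 1 surrogate variable from sva 3.50.0, title number, and each library left out. Removal of a length and GC trend (12926 genes) was chosen after seeing the data. 0 value columns were unmapped.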

Additional observations from a re-analysis of the deposited data

Results flagged for a closer look

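By Dixon's test at the 95% level, 2 of the 54 group sets checked for 27 genes held a library far from the other 3, where chance gives about 1 in 20. Itgb1 was at 42.6 CPM in GFP-ZFP36L1 replicate 1, against 36.6 to 36.9 CPM in the other 3 libraries of that group. Zfp36l1 was at 599 CPM in control replicate 1, against 523 to 534 CPM in the other 3 controls. No member was among them.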

How the results depend on the processing

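The values of Plxna1, Plxnd1 and Plxnb2 come from the comparison that chose them, so their range describes dependence on settings and supports nothing. Over 10 alternatives the log2 fold changes were 1.37 to 1.53, 0.77 to 0.87 and 0.47 to 0.57. With a library left out Plxna1 was 1.31 to 1.67, Plxnd1 0.71 to 0.97, missing the threshold without control replicate 3, and Plxnb2 0.42 to 0.62, missing it without any 1 control or GFP-ZFP36L1 replicate 3. Genes called numbered 407, against 882 in DESeq2, 1053 in limma voom, 1320 with a surrogate variable, 1030 with title number, and 79 (without control replicate 3) to 948 (without GFP-ZFP36L1 replicate 1) with a library left out. Family genes called numbered 3, and 5 with each of DESeq2, limma voom, the surrogate variable and title number, adding Plxnb1 and Sema5a, and 1 to 4 with a library left out, where 1 is without control replicate 3. Partner genes called numbered 1, and 2 with DESeq2, limma voom, the surrogate variable and title number, adding Ptprc as lower, and 1 with any library left out. Signalling genes called numbered 2, and 3 with DESeq2 or with the length and GC trend removed, each adding Ptk2b as lower. They numbered 4 with limma voom, 5 with the surrogate variable, 4 with title number, and 0 to 6 with a library left out. Limma voom added Ptk2b and Diaph1 as lower. The surrogate variable added Fes and Limk1 as higher and Ptk2b as lower. Title number added Limk1 as higher and Ptk2b as lower.

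Members that did not pass changed sign under some settings, and the cause was not tested. Sema4a was 0.014 with limma voom and -0.17 to 0.018 with a library left out. Sema7a was -0.15 with limma voom, -0.061 with the surrogate variable, -0.077 with title number, and -0.22 to 0.16 with a library left out. Plxnc1 was -0.025 with the length and GC trend removed, and -0.0075 to 0.11 with a library left out. Sema4b was -0.099 to 0.027 and Sema4d -0.13 to 0.048 with a library left out. Per kb of the longest transcript, control levels were 2.46 for Plxnb2, 16.2 for Plxnc1, 0.393 for Sema4a, 34.1 for Sema4b and 68.4 for Sema4d. Library totals without TMM moved no member's level by more than its SD, and all annotated 3' UTRs together gave the same 3 members with a heptamer. No paired analysis was possible because the titles number the 8 libraries in 1 series, so no number is shared between groups to define a block. Depth limits Sema4c, which could not be fitted after the filter.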
